A study of Homo sapiens with 3 samples.

Results

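Axon guidance ligands and their receptors were followed in human stem-cell-derived islets as 68 of the 36601 genes counted, taken by symbol: the class 3 to class 7 semaphorins, plexins, neuropilins, SLITs and ROBOs, netrins 1 and 4 with their receptors DCC, NEO1 and the UNC5 family, and the ephrins with the EPHA and EPHB receptors, antisense transcripts left out. All islets were made from HUES8, a widely used established line of human embryonic stem cells, and no genetic change or drug is named for any group. Dispersed cells were separated magnetically with an antibody to CD49a, the integrin alpha 1 protein of ITGA1, into a positive and a negative population, and a further population was left unsorted. Each population re-aggregated for 7 days and was then sequenced with 10x Chromium as 1 library, so the 3 groups have 1 library each, no replicates and no test. Intervals are exact 95% intervals of counting error, which say nothing of the spread between cultures.

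Guidance molecules steer growing axons and migrating cells by attraction and repulsion. SLITs are secreted and act through ROBO receptors, netrins act through DCC, NEO1 and the UNC5 receptors, semaphorins act through plexins, with neuropilins as partners for most class 3 semaphorins, and membrane-bound ephrins and Eph receptors signal between touching cells in both directions. In the pancreas, SLIT and ROBO genes are known for a part in islet architecture and beta cell survival, and ephrin and Eph signalling between neighbouring beta cells for a part in insulin secretion.

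The libraries held 88397368 to 127119509 UMIs, and 1976 to 2394 cells per library were kept, with medians of 36997 to 48538 UMIs per cell. Values are UMIs of a gene summed over cells, per 1000000 UMIs of those cells (CPM). Clusters made without the guidance genes gave 3 endocrine classes: beta-like (67.5% of the positive library's cells, 17.6% of the negative's and 30.2% of the unsorted's), alpha-like (10.4, 27.1 and 21.0%) and enterochromaffin-like, which resemble the serotonin-making cells of the gut (2.76, 18.6 and 17.8%). ITGA1 stood at 108 CPM among positive, 33.2 among negative and 66.2 among unsorted cells. Clusters without a name held 17.9, 32.7 and 28.0% of cells. INS, the insulin gene, stood at 82205, 83826 and 92068 CPM in beta-like cells. Delta cell markers summed to 3248, 8182 and 5570 CPM over all cells and duct markers to 327 to 405 CPM, with no cluster named for either. Acinar markers summed to at most 1.77 CPM, mesenchymal markers to 5.34 to 12.2 CPM and endothelial markers to 15.9 to 20.5 CPM. The 10 neural markers, of which 5 reached 10 CPM, summed to 1120, 1133 and 1130 CPM. Libraries shared 2 to 6 barcodes per pair. The doublet caller marked 8 cells, too few for it to have worked, so doublets may remain in every class. The beta-like class was held mostly by clusters 0 (743, 113 and 309 cells) and 1 (579, 177 and 269 cells), and the alpha-like class by clusters 2 (167, 253 and 255 cells) and 3 (82, 283 and 217 cells) in the positive, negative and unsorted library, so cluster 0 led the positive and cluster 1 the negative beta-like cells.

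Of the 68 genes, 36 reached 10 CPM over all kept cells in at least 1 library, and they are given with values. The remaining 32 stayed at or below 8.55 CPM in every library, 12 of them below 1 CPM. Among the latter was the endothelial receptor ROBO4, counted as 0 in both sorted libraries. All 68 together took 4560 CPM of the positive, 3409 CPM of the negative and 4052 CPM of the unsorted library.

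**Figure D1:**
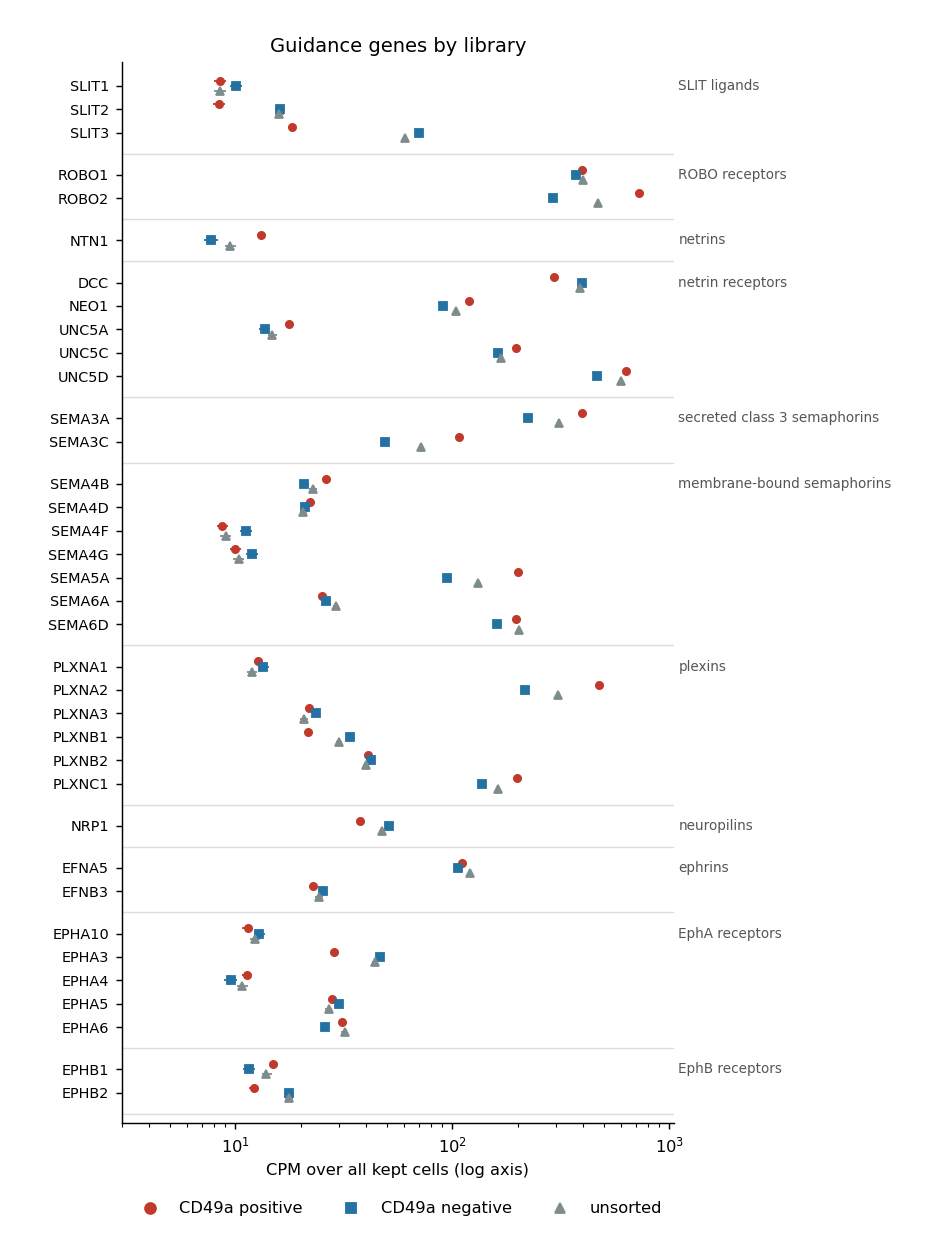
CPM over all kept cells (horizontal, log axis) of the 36 guidance genes that reached 10 CPM, grouped by role, with 1 point per library and lines for the exact 95% Poisson interval, mostly shorter than the point. ROBO2 was higher in positive (725 CPM) than in negative cells (291 CPM), and SLIT3 was lower (18.3 against 70.1 CPM).

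Among the secreted SLIT ligands, SLIT3 differed most between the libraries. SLIT3 (chromosome 5, 168661733 to 169301129, minus strand, GRCh38) stood at 18.3 CPM (17.5 to 19.1) among positive, 70.1 (68.3 to 71.9) among negative and 60.7 (59.3 to 62.2) among unsorted cells, and was 3.83-fold (3.65 to 4.02) higher in the negative than in the positive library. Among the 3 classes it was highest in enterochromaffin-like cells: there it stood at 284 CPM among positive, 235 among negative and 288 among unsorted cells, against beta-like levels of 7.95, 24.0 and 12.6 CPM and alpha-like levels of 22.3, 16.1 and 13.8 CPM. Enterochromaffin-like cells held 612 of 2239, 3001 of 5927 and 3967 of 6649 SLIT3 UMIs. Of the same totals, beta-like cells held 646, 305 and 451 UMIs and alpha-like cells 214, 328 and 271 UMIs. The rest lay in proliferating cells and in clusters without a name, whose SLIT3 levels are not compared between libraries here. The low positive level thus appeared over all cells, in which enterochromaffin-like cells were few, and in beta-like cells. It did not appear inside the enterochromaffin-like or alpha-like class, and whether it extended to cells outside the 3 classes is not given. Over a whole library, fewer cells of a type and less RNA per cell cannot be told apart. The beta-like level of SLIT3 was 2.80, 10.2 and 4.39% of the enterochromaffin-like level, and the same percentages for TPH1, the serotonin synthesis enzyme, were 3.06, 10.6 and 6.48%. For FEV, another gene of enterochromaffin-like cells, they were 7.86, 6.91 and 7.71%, which did not vary between libraries as those of SLIT3 did. How much SLIT3 in beta-like cells was RNA carried over from other cells was not tested.

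SLIT2 stood at 8.42, 16.1 and 15.9 CPM and SLIT1 at 8.53, 10.1 and 8.54 CPM in the positive, negative and unsorted library. SLIT2 reached 29.7, 21.7 and 34.0 CPM in alpha-like cells and up to 28.0 CPM in enterochromaffin-like cells, and at most 4.73 CPM in beta-like cells. SLIT2 and SLIT3 were both lowest in the positive library over all cells, and SLIT1 lay between 8.53 and 10.1 CPM.

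The SLIT receptors ROBO1 and ROBO2 divided between beta-like and alpha-like cells. ROBO2 (chromosome 3, 75906695 to 77649964, plus strand) stood at 725 CPM (720 to 730) among positive, 291 (287 to 294) among negative and 471 (467 to 475) among unsorted cells. The positive level was 2.49-fold (2.46 to 2.53) the negative level. In beta-like cells alone ROBO2 was nearly level, at 901 CPM (894 to 907), 857 CPM (841 to 873) and 826 CPM (816 to 835). It stood lower in enterochromaffin-like cells, at 501, 289 and 394 CPM, and lowest in alpha-like cells, at 131, 93.7 and 102 CPM. The alpha-like level was 14.5, 10.9 and 12.3% of the beta-like level, and for INS, a gene of beta cells, these percentages were 13.8, 13.7 and 15%. For IAPP, another hormone gene of beta cells, they were 8.40, 6.47 and 13.3%, below those of ROBO2 in the positive and negative library and above it in the unsorted one. Whether ROBO2 in alpha-like cells was carried over was not tested.

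ROBO1 (chromosome 3, 78597240 to 79767815, minus strand) barely differed between libraries, at 397 CPM among positive, 372 among negative and 400 among unsorted cells. By class it went the other way from ROBO2, at 628, 558 and 595 CPM in alpha-like cells, while beta-like levels were 363, 291 and 339 CPM and enterochromaffin-like levels 337, 244 and 372 CPM. Of all ROBO1 and ROBO2 UMIs, ROBO1 took 82.8, 85.6 and 85.4% in alpha-like cells, 28.7, 25.3 and 29.1% in beta-like cells and 40.2, 45.8 and 48.6% in enterochromaffin-like cells. These are shares of UMIs and not of receptor protein. The highest ROBO1 level of any cluster, 1122, 1065 and 1175 CPM, was in cluster 11, which had no class name and had GC and ONECUT3 among its leading genes.

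Per cell, the same split was seen at equal depth. After each cell was thinned to 10000 UMIs, a ROBO2 UMI was found in 97.0% (95.9 to 97.8), 93.0% (89.4 to 95.7) and 95.7% (93.8 to 97.2) of beta-like cells in the positive, negative and unsorted library, against 45.3, 35.4 and 39.8% of alpha-like cells. Without thinning, the shares were 86.2, 85.0 and 87.5% and 66.7, 55.2 and 63.3%, lower in beta-like and higher in alpha-like cells than at equal depth. For SLIT3 the thinned shares were 58.7, 66.9 and 66.9% of enterochromaffin-like and 5.43, 11.8 and 7.65% of beta-like cells, and the unthinned shares 68.2, 78.7 and 77.2% and 11.9, 14.4 and 16.2%. Median depths before thinning were 48813, 33871 and 49385 UMIs in beta-like, 36134, 33149 and 37383 in alpha-like and 26901, 28639 and 28939 in enterochromaffin-like cells. Thinning left out 290, 60 and 90 beta-like cells, 6, 19 and 10 alpha-like cells and 3, 26 and 16 enterochromaffin-like cells that were shallower. The beta-like class included a shallow cluster, cluster 6, with 280, 55 and 97 cells and a median of 3755 UMIs.

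The netrin receptors split by class in a like way, with DCC in alpha-like and UNC5D in enterochromaffin-like and beta-like cells. DCC (chromosome 18, 52340172 to 53535903, plus strand), which mediates attraction to netrin, stood at 293 CPM (290 to 296) among positive, 397 (393 to 401) among negative and 389 (385 to 393) among unsorted cells. In alpha-like cells it reached 1341 CPM (1318 to 1365), 994 CPM (980 to 1008) and 1236 CPM (1221 to 1252), 6.09-fold to 7.76-fold the beta-like level of 173, 163 and 168 CPM. Enterochromaffin-like cells were lower still, at 119, 89.1 and 93.9 CPM. DCC in beta-like cells was 12.9, 16.4 and 13.6% of its alpha-like level, while the alpha cell hormone gene GCG was there at 2.01, 1.98 and 2.60% of its own. At 10000 UMIs per cell, 95.1, 93.8 and 94.6% of alpha-like cells had a DCC UMI, against 47.9, 39.0 and 42.0% of beta-like and 30.2, 30.8 and 30.7% of enterochromaffin-like cells. Without thinning these were 98.0, 97.8 and 99.2%, 59.2, 48.7 and 55.0%, and 48.5, 48.0 and 44.5%.

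UNC5D (chromosome 8, 35235457 to 35796550, plus strand), a receptor that mediates repulsion, stood at 633, 462 and 599 CPM in the positive, negative and unsorted library. It was highest in enterochromaffin-like cells at 1143, 851 and 1181 CPM, then in beta-like cells at 716, 785 and 735 CPM, and lowest in alpha-like cells at 185, 148 and 163 CPM. UNC5C, of the same family, ran in another order, with 447, 290 and 288 CPM in alpha-like, 189, 181 and 174 CPM in beta-like and 130, 138 and 153 CPM in enterochromaffin-like cells. Of UNC5C and UNC5D UMIs together, UNC5C took 70.8, 66.3 and 63.9% in alpha-like cells but 20.9, 18.7 and 19.2% in beta-like and 10.2, 13.9 and 11.5% in enterochromaffin-like cells. ROBO1 and UNC5C thus each had their highest share of the pair's UMIs in alpha-like cells in all 3 libraries. The 2 shares of a pair mirror each other, so 1 gene does this wherever alpha-like cells lie at an end. It also held for SLIT2 beside SLIT3, DCC beside NEO1, NRP1 beside NRP2 and PLXNC1 beside PLXNA2, but not for SEMA3A and SEMA3C.

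NEO1, neogenin, a relative of DCC, was spread more evenly, at 123, 126 and 125 CPM in beta-like, 150, 117 and 127 CPM in alpha-like and 60.9, 58.0 and 66.2 CPM in enterochromaffin-like cells. UNC5A stood at 17.7, 13.7 and 14.8 CPM over all cells and was highest in beta-like cells, at 19.3, 19.1 and 19.9 CPM. The ligand NTN1, netrin 1, was low at 13.2, 7.73 and 9.51 CPM. It too was highest in beta-like cells, at 13 to 18.0 CPM, and over all cells the positive library stood above the others. NTN4 lay at or below 1.02 CPM over all cells.

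The secreted class 3 semaphorins SEMA3A and SEMA3C were high in beta-like cells and low in alpha-like cells. SEMA3A, a repellent that signals through NRP1 with plexins, stood at 394, 223 and 309 CPM over all cells, with 445, 362 and 400 CPM in beta-like, 526, 317 and 425 CPM in enterochromaffin-like and 168, 125 and 141 CPM in alpha-like cells. SEMA3C stood at 107 CPM (105 to 109) among positive, 49.2 (47.7 to 50.7) among negative and 71.5 (70.0 to 73.1) among unsorted cells. In beta-like cells it was level, at 128, 128 and 129 CPM, against 17.8, 14.3 and 14.5 CPM in alpha-like cells. The alpha-like level was 13.9, 11.2 and 11.2% of the beta-like level. These percentages were above those of INS and IAPP in the positive library, between them in the negative and below both in the unsorted one. Whether SEMA3C in alpha-like cells was carried over was not tested. The 5 other class 3 genes stayed at or below 6.94 CPM over all cells, and among them SEMA3E reached 15.6 CPM in enterochromaffin-like cells of the negative library.

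Among membrane-bound semaphorins, SEMA5A and SEMA6D had class patterns of their own. SEMA5A stood at 200 CPM (198 to 203) among positive, 94.1 (92.0 to 96.2) among negative and 132 (130 to 135) among unsorted cells. It was highest in beta-like cells at 230, 174 and 204 CPM, with 110, 93.2 and 89.4 CPM in alpha-like and 92.5, 34.7 and 57.5 CPM in enterochromaffin-like cells. SEMA6D (196, 160 and 203 CPM over all cells) was the reverse of DCC: it took 529, 386 and 520 CPM in enterochromaffin-like and 221, 258 and 232 CPM in beta-like cells but 17.9, 20.7 and 20.3 CPM in alpha-like cells. SEMA6A was likewise highest in enterochromaffin-like cells, at 66.9, 52.6 and 66.1 CPM against 12.3, 10.9 and 9.50 CPM in alpha-like cells. SEMA4B, SEMA4D, SEMA4F and SEMA4G lay between 8.73 and 26.1 CPM over all cells, and among these SEMA4B was highest in beta-like cells, at 28.9, 34.0 and 27.4 CPM.

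Of the semaphorin receptors, PLXNA2 belonged with ROBO2 and SEMA3C in beta-like cells. PLXNA2 (chromosome 1, 208022242 to 208244320, minus strand), plexin A2, stood at 474 CPM (470 to 478) among positive, 216 (213 to 219) among negative and 308 (305 to 312) among unsorted cells, a positive-to-negative fold of 2.20 (2.16 to 2.23). By class it stood at 569, 549 and 526 CPM in beta-like, 278, 148 and 170 CPM in enterochromaffin-like and 96.1, 93.6 and 97.6 CPM in alpha-like cells. PLXNC1, the receptor of SEMA7A, stood at 199, 137 and 162 CPM and was lower in alpha-like cells (121, 106 and 108 CPM) than in beta-like cells (215, 192 and 195 CPM). SEMA7A itself had 9, 11 and 10 UMIs in all. PLXNB1, a receptor of class 4 semaphorins, stood at 21.7, 33.9 and 30.1 CPM and was highest in enterochromaffin-like cells at 34.9, 50.9 and 45.9 CPM. PLXNA1, PLXNA3 and PLXNB2 lay between 11.9 and 42.1 CPM.

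The neuropilin NRP1, co-receptor for SEMA3A, lay in the class in which SEMA3A was lowest. It stood at 37.7, 51.1 and 47.4 CPM over all cells, and at 114, 86.6 and 102 CPM in alpha-like, 61.8, 37.3 and 40.2 CPM in enterochromaffin-like and 21.9, 17.3 and 20.6 CPM in beta-like cells. The beta-like level was 19.1 to 20.1% of the alpha-like level. NRP2 stayed at or below 6.44 CPM over all cells. In cluster 15, 1 of the 3 enterochromaffin-like clusters, NRP2 was among the 10 leading genes, although that cluster held only 9 positive, 28 negative and 34 unsorted cells.

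Among the ephrins and Eph receptors, several had a class in which they were highest. EFNA5, ephrin A5, stood at 111, 106 and 121 CPM over all cells and was highest in enterochromaffin-like cells, at 267, 142 and 212 CPM. EFNB3 stood at 22.9, 25.4 and 24.3 CPM. EPHA3, a receptor that binds ephrin A5, stood at 28.4, 46.3 and 43.9 CPM over all cells, with 71.1, 64.0 and 72.1 CPM in alpha-like, 73.4, 61.6 and 77.5 CPM in enterochromaffin-like and 19.0, 16.2 and 15.5 CPM in beta-like cells. EPHA5 was highest in alpha-like cells, at 52.7, 52.5 and 46.5 CPM, and EPHA4 too, at 17, 12.9 and 16.5 CPM. EPHA6 stood at 31.2, 26.0 and 31.9 CPM, EPHA10 at 11.4, 12.9 and 12.3 CPM, EPHB1 at 15, 11.6 and 13.9 CPM and EPHB2 at 12.2, 17.7 and 17.7 CPM. EPHB2 and EPHA10 were highest in enterochromaffin-like cells, at 24.6, 34.8 and 39.9 CPM and 21.8, 21.1 and 22.2 CPM.

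Class patterns were then counted over all guidance genes. Of the 36 genes at 10 CPM, 21 had 1 class highest in every library with its interval apart from those of the other 2 classes, against 20.5% of all 10525 genes at that level: 7 in beta-like, 6 in alpha-like and 8 in enterochromaffin-like cells. A stricter rule asked for a log2 ratio, with 10 CPM added to both sides, of at least 2-fold in the same direction in all 3 libraries, among genes with at least 50 CPM and 50 UMIs in the higher class. Of 17 guidance genes that could be judged for some pair of classes, 12 met it (14.9% of all genes judged did). Guidance genes of at least 300 kb did so in 8 of 10 cases and shorter ones in 4 of 7 cases, and of all genes of at least 300 kb 40.8% did. Long genes thus met the rule more often than all genes did. The share was 80.0% among the long guidance genes and 57.1% among the shorter ones. The share among all shorter genes was not counted, and the part of gene length was not tested.

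Between beta-like and alpha-like cells 9 of 15 met the rule (7.39% of all genes), with PLXNA2, ROBO2, SEMA3C, SEMA3A, UNC5D and SEMA6D higher in beta-like and EPHA3, NRP1 and DCC higher in alpha-like cells. ROBO2 had log2 ratios of 2.70, 3.06 and 2.90 in the positive, negative and unsorted library, and DCC of -2.88, -2.54 and -2.81. Between beta-like and enterochromaffin-like cells 4 of 16 met it (6.49%): PLXNA2 and SEMA5A were higher in beta-like, and EPHA3 and SLIT3 in enterochromaffin-like cells. Between alpha-like and enterochromaffin-like cells 7 of 16 met it (11.9%), with DCC higher in alpha-like and ROBO2, SEMA6A, SLIT3, SEMA3A, UNC5D and SEMA6D higher in enterochromaffin-like cells. Ligands and receptors were both among the 12. PLXNA2, ROBO2, SLIT3, SEMA3C, SEMA3A, UNC5D, NRP1, SEMA6D and DCC met the rule for some pair of classes under all 13 alternative settings. Whether the pair and direction stayed the same was not counted. EPHA3 met it in 11, SEMA5A in 11 and SEMA6A in 10 of them.

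**Figure D2:**
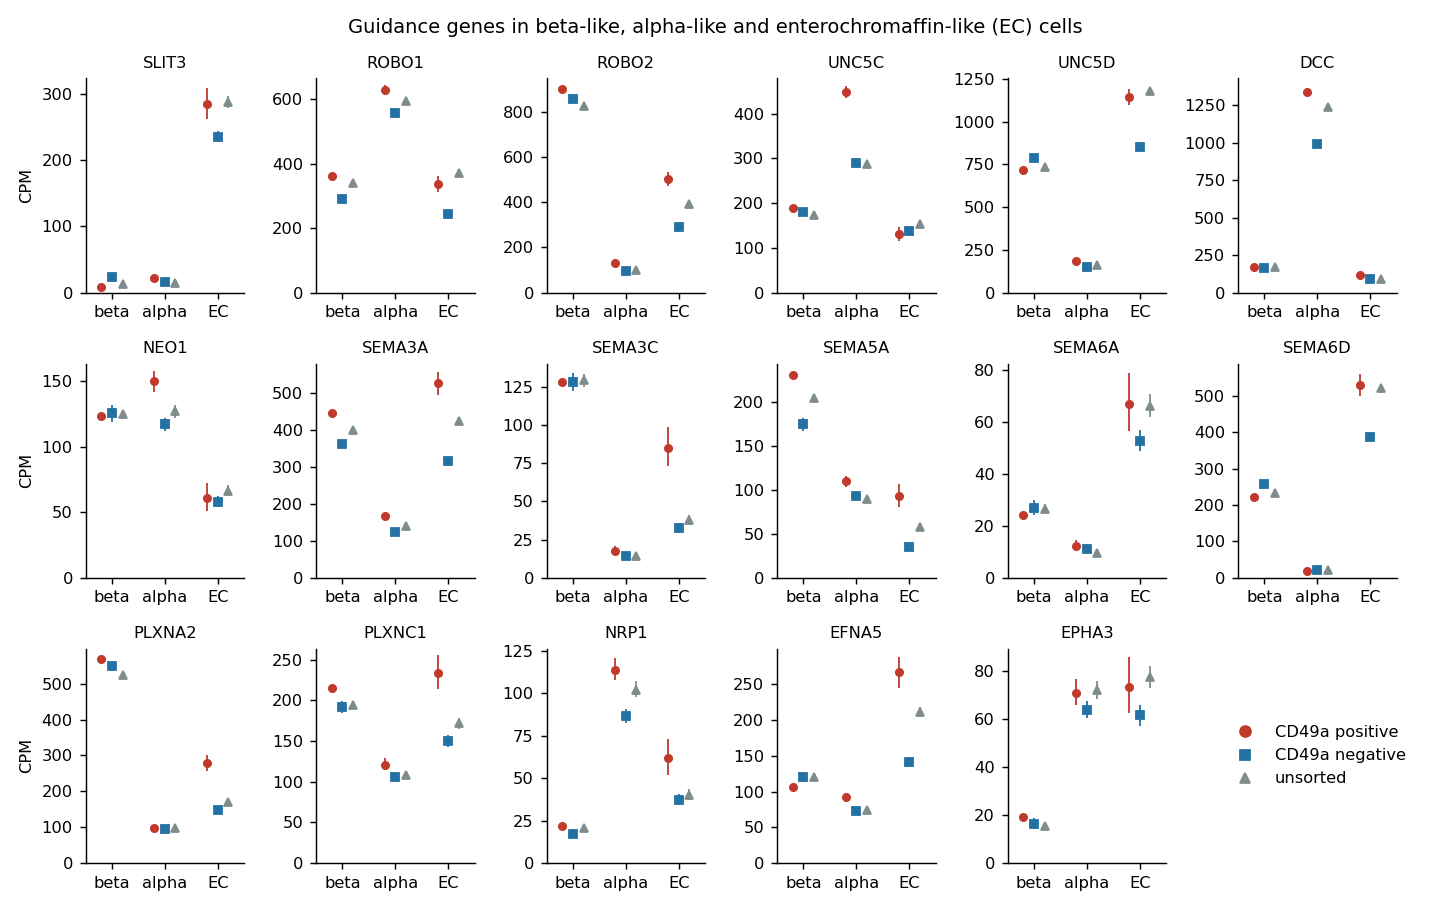
CPM (vertical axis, from 0, own scale per gene) of the 17 guidance genes judged between classes, in beta-like, alpha-like and enterochromaffin-like (EC) cells, with 1 point per library and lines for the exact 95% Poisson interval. DCC rose above the other classes only in alpha-like cells (994 to 1341 CPM), SLIT3 only in enterochromaffin-like cells (235 to 288 CPM), and ROBO2 and PLXNA2 were highest in beta-like cells.

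ROBO2, PLXNA2 and SEMA3C shared the order beta-like over enterochromaffin-like over alpha-like in all 3 libraries, and the 250 bases before their RefSeq start sites (build GRCh38.p14) are shown because genes that share a pattern need not share this composition. Windows were found for 59 of the 68 genes. CpG pairs are in capitals. The ROBO2 window is chr3:76310630-76310879 on the plus strand, the PLXNA2 window chr1:208244385-208244634 on the minus strand and the SEMA3C window chr7:80922390-80922639 on the minus strand, each written 5′ to 3′ along its gene.
ROBO2: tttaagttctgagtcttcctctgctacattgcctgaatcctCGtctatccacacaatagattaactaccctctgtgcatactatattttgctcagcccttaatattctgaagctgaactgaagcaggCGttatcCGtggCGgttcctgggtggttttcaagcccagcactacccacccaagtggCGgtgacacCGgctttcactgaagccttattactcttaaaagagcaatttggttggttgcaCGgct
PLXNA2: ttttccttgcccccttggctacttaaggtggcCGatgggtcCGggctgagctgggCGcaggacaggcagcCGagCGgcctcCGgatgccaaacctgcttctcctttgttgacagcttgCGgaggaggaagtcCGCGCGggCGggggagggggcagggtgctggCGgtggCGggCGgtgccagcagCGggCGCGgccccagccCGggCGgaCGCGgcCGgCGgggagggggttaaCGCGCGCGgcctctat
SEMA3C: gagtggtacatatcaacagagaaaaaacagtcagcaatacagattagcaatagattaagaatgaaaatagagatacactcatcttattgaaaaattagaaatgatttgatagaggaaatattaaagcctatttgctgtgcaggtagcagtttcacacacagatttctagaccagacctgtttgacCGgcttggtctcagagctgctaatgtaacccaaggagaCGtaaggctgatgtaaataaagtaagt
The ROBO2 window held 7 CpG pairs at 46.8% GC, the PLXNA2 window 27 at 72.4% and the SEMA3C window 2 at 36.4%, against medians of 11 pairs and 58.0% over 35116 such windows. The 3 genes thus lay on both sides of the median. The ROBO2 start in RefSeq lies inside the GENCODE span given above, and the counts per gene do not show which start was used.

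The sorted libraries were compared over all kept cells by the same 2-fold rule. Of 15 guidance genes judged, 3 were higher in the positive library (ROBO2, PLXNA2 and SEMA5A) and 1 was lower (SLIT3), while 1.46% of all 4241 genes judged differed in either direction. The log2 ratios were 1.29, 1.10, 1.01 and -1.50, and SEMA3C fell just outside the rule at 0.98. Their median over the 15 genes was 0.36, beside 0.03 over all genes judged and 0.19 over those of at least 300 kb. Of the 14 judged between the positive and the unsorted library only SLIT3 differed, being lower in the positive one (0.319% of all genes). Between the negative and the unsorted library 0 of 15 differed (0.0241%). The comparisons with the unsorted library share it and are not independent of each other.

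These differences shrank when the cell mix was held fixed. With every cluster of at least 10 cells per library weighted as in the unsorted library, 0 of the guidance genes judged were 2-fold apart. The same was true of nearly all genes: 1 of 4123 judged was 2-fold apart at that setting, against 62 of 4241 with each library's own cell mix. ROBO2 then had a log2 ratio of 0.33, PLXNA2 of 0.27, SEMA5A of 0.44, SEMA3C of 0.23 and SLIT3 of -0.42. NRP1 moved from -0.36 to 0.19 and DCC from -0.43 to 0.06, so the lower level of both in the positive library was seen with its own cell mix and not with the fixed one. Within beta-like cells, 0 of 13 guidance genes were 2-fold apart between the sorted libraries (0.0499% of all genes), with ROBO2 at 0.07, PLXNA2 at 0.05 and SEMA3C at -0.00. SEMA5A was less even, its positive beta-like level of 230 CPM (227 to 233) exceeding the negative one of 174 CPM (167 to 181). The largest beta-like ratio among the 4 genes called over all cells was that of SLIT3, -0.92, at levels of 7.95 and 24.0 CPM.

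**Figure D3:**
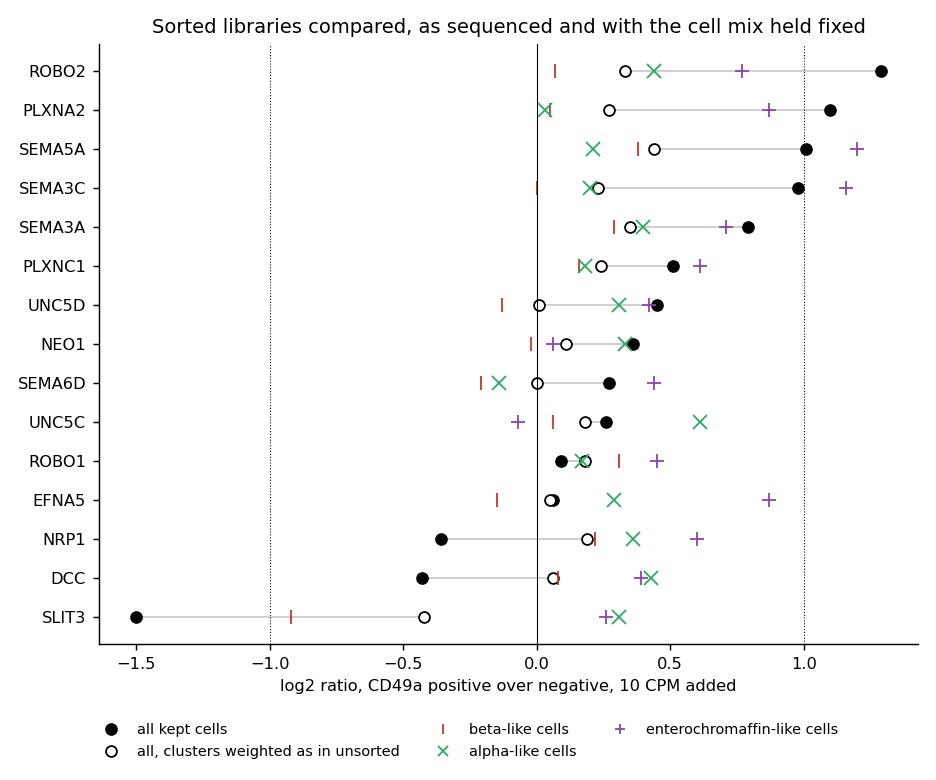
Log2 of the positive-to-negative ratio, 10 CPM added to both (horizontal axis), for the 15 guidance genes judged over all kept cells. Filled circles are all kept cells, open circles the same with clusters weighted as in the unsorted library, and the other marks single classes; dotted lines are the 2-fold limits. ROBO2 moved from 1.29 to 0.33 and SLIT3 from -1.50 to -0.42.

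In alpha-like cells 0 of 14 were 2-fold apart (0.0490%), with UNC5C highest at 0.61 and DCC at 0.43. In enterochromaffin-like cells 2 of 18 were (1.88%), both higher in the positive library. SEMA5A stood at 92.5 CPM (80.1 to 106) in positive and 34.7 (31.5 to 38.1) in negative cells, and SEMA3C at 85.0 CPM (73.2 to 98.3) and 32.4 CPM (29.3 to 35.7). These positive values came from 66 cells, which included 43 cells of cluster 4, 14 of cluster 8 and 9 of cluster 15, while negative cells were 178, 161 and 28 in these clusters. With clusters 4 and 8 weighted equally the ratios were 0.94 and 0.83, no longer 2-fold, from 1.20 and 1.16. The median ratio of the guidance genes judged was 0.45 in enterochromaffin-like and 0.30 in alpha-like cells. All genes judged of at least 300 kb had medians of 0.53 and 0.29 there, and all genes of 0.08 and 0.06. MALAT1, a nuclear RNA, stood at 19454 CPM in enterochromaffin-like cells of the positive library and 15925 CPM in those of the negative one. In alpha-like cells it was nearly level, at 18912 and 18309 CPM. The part of these in the ratios was not tested.

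Guidance genes also varied inside each class, mostly together. In beta-like cells UNC5D alone of 13 genes was 2-fold apart between clusters 1 and 0 in all 3 libraries (3.33% of all genes in either direction), at 1119, 1092 and 1216 CPM in cluster 1 and 461, 452 and 438 CPM in cluster 0. ROBO2 was higher there too, at 1229, 1138 and 1162 CPM against 707, 568 and 631 CPM, short of the rule. In alpha-like cells 4 of 14 (5.58% of all genes in either direction) were higher in cluster 2 than in cluster 3, namely EPHA3, EFNA5, SEMA3A and DCC. DCC stood at 1784, 1601 and 1812 CPM in cluster 2 and 508, 550 and 637 CPM in cluster 3. In enterochromaffin-like cells 5 of 14 were higher in cluster 4 than in cluster 8, namely ROBO2, EFNA5, SLIT3, UNC5D and SEMA6D. There 31.8% of all genes were 2-fold apart in either direction, 541 higher in cluster 4 and 662 higher in cluster 8. SLIT3 stood at 357, 429 and 443 CPM in cluster 4 and 163, 130 and 117 CPM in cluster 8.

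The direction inside classes was that of long genes in general. Median ratios of the guidance genes were 0.56, 0.96 and 0.94 in the beta-like, alpha-like and enterochromaffin-like pair of clusters, beside 0.84, 1.03 and 1.23 for all genes of at least 300 kb and 0.23, 0.26 and 0.41 for all genes. MALAT1 was higher in the same clusters, at 16485 to 16877 CPM against 11069 to 11823 CPM in beta-like cells, 21637 to 24331 CPM against 13782 to 15553 CPM in alpha-like cells and 22267 to 24200 CPM against 10418 to 12938 CPM in enterochromaffin-like cells. The part of this difference in the guidance genes' ratios was not tested. DCC in beta-like cells did not go along, with ratios of 0.08, -0.28 and -0.18.

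**Figure D4:**
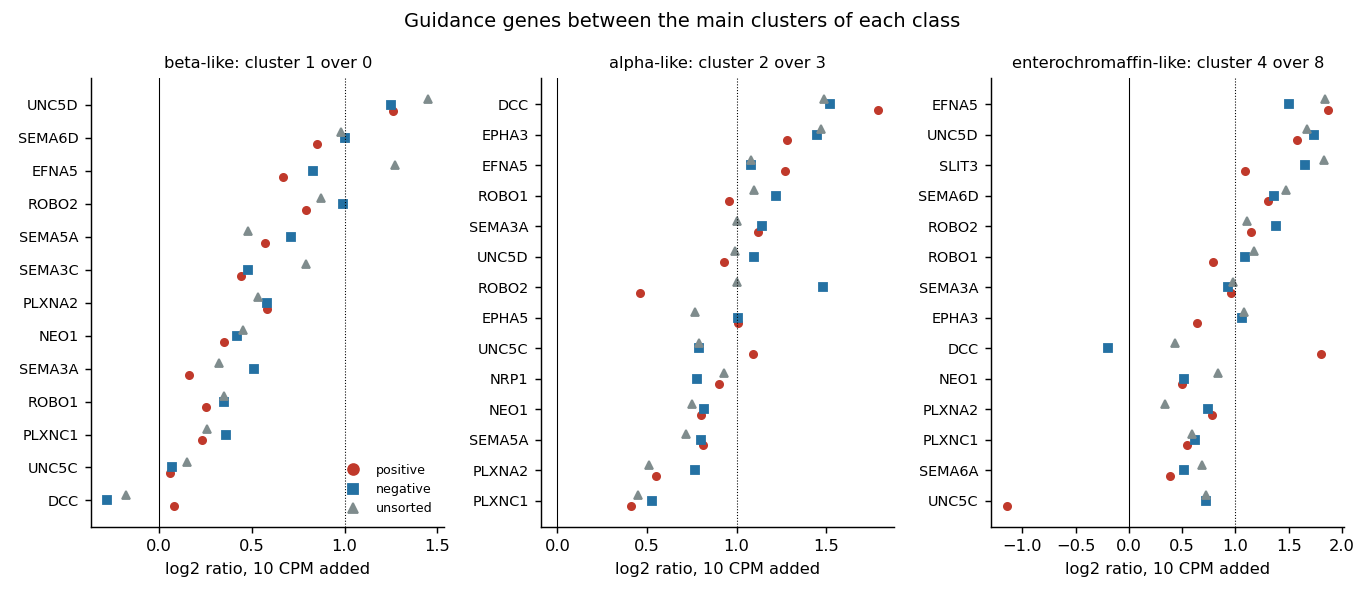
Log2 ratio with 10 CPM added (horizontal axis) of each judged guidance gene between the 2 main clusters of a class, 1 point per library, with dotted lines at 2-fold. In alpha-like cells all 14 genes lay above 0 in all 3 libraries, DCC highest at 1.49 to 1.79. UNC5C in enterochromaffin-like cells was below 0 in the positive library alone, at -1.14, where cluster 8 held 14 cells, and DCC in the negative one, at -0.20.

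Other genes of these pathways were counted in the same way. Of 37 further cues and co-receptors, 15 could be judged and 0 were 2-fold apart between the sorted libraries (median log2 ratio 0.10), beside 1.46% of all genes. Those farthest from 0 were NTNG2, netrin G2, at 68.5 CPM among positive and 36.0 CPM among negative cells (0.77), LRIG1 (-0.57) and the teneurin TENM4 (0.52). Of 41 genes of intracellular guidance signalling, 40 were found, 23 could be judged and 0 were 2-fold apart (median 0.13), with the actin-binding ABLIM1 (0.64) and the exchange factors VAV3 (0.58) and TIAM1 (-0.46) farthest from 0. By class, 4 of 14 further cues met the rule between beta-like and alpha-like cells (7.39% of all genes), 4 of 18 between beta-like and enterochromaffin-like cells (6.49%) and 6 of 18 between alpha-like and enterochromaffin-like cells (11.9%). For the intracellular genes these counts were 3 of 22, 2 of 22 and 5 of 23. Between beta-like and alpha-like cells, NTNG2, TENM4 and the netrin G1 ligand LRRC4C were higher in beta-like cells and the adhesion molecule NRCAM in alpha-like cells. TIAM1 stood at 162, 126 and 125 CPM in alpha-like cells and at 26.3, 29 and 28.6 CPM in beta-like ones. EVL, of the Ena/VASP family that acts on actin filaments, stood at 327, 294 and 311 CPM in enterochromaffin-like, 120, 130 and 121 CPM in beta-like and 84.3, 86.5 and 79.8 CPM in alpha-like cells.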

How the data were processed

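Single-cell RNA sequencing values of 3 libraries from HUES8-derived islets were used, grouped by the sorting labels. Each deposited table gives UMI counts as whole numbers for every gene and cell barcode, produced by the authors with Cell Ranger 7.1.0 on GRCh38, per the submitters' processing notes. The kit version, annotation release, use of intronic reads and use of strand are not given in the sources used here; without strand, reads of a gene and of an antisense partner cannot be told apart, and intronic reads would favour long genes. Gene positions came from GENCODE release 29 (GRCh38), matched by identifier for 68 of 68 genes.

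Cells needed 1000 or more genes and no more than 20% mitochondrial UMIs, 8 called doublets (Scrublet) were removed, and 1978 variable genes without the 22 guidance genes among the 2000 chosen gave 30 components, 20 neighbours and 17 Leiden clusters (resolution 1, seed 0; scanpy 1.11.5, leidenalg 0.10.2, Python 3.11.15). Clusters were named from fixed markers with a scoring rule chosen once clusters had been seen: 3 or more markers at least 1.5-fold above other cells, and a lead of 0.5 mean log2 over the next endocrine class. Clusters 6 and 13 were shallow. Kept cells held 84568295 to 122372168 UMIs per library, which gives narrow intervals over all cells. Enterochromaffin-like cells of the positive library held 2151779 UMIs, and their intervals are wider. Intervals are exact Poisson for sums and Clopper-Pearson for shares, at 95%, and cover counting error alone. A log2 ratio adds 10 CPM to both levels, which understates low genes. In simulated counts of all 36601 genes for the positive and negative library, 100% of genes changed 3-fold and 100% of those changed 8-fold, and 0% of 3758 unchanged genes, passed the 2-fold rule. The changed genes all lay well above the 50 CPM floor, and only counting error was simulated, so this outcome was nearly fixed beforehand. Changes nearer 2-fold, lower genes and the spread between cultures were not simulated. Alternatives were other added CPM, scaling, weighting, filters, resolutions and ways of naming; fixed cluster weights, leaving out shallow clusters and leaving out shared barcodes were added after seeing the data. The guidance genes and lists were chosen with earlier results of these data known. Genes reaching 10 CPM are named, as are pathway genes past the rule or the 3 farthest from 0; pathway genes given by class were chosen after their values were seen. Promoter windows came from the RefSeq table, build GRCh38.p14.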

Additional observations from a re-analysis of the deposited data

Results flagged for a closer look

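SLIT3 and EPHA6 moved in different directions in different classes between the sorted libraries; with 1 library per group the difference was not tested. SLIT3 had log2 ratios of the positive over the negative library of -0.92 in beta-like, 0.26 in enterochromaffin-like and 0.31 in alpha-like cells. EPHA6 had ratios of 0.28 in beta-like, 0.60 in enterochromaffin-like and -0.25 in alpha-like cells.

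A signal was also present in barcodes left out by the cell filter, which were 46.9% of positive, 23.0% of negative and 19.7% of unsorted barcodes and held 3.73, 4.33 and 3.82% of UMIs. In those of the positive library ROBO2 stood at 387 CPM, PLXNA2 at 289 CPM and SEMA5A at 124 CPM, above 271, 206 and 80.9 CPM in those of the unsorted library.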

How the results depend on the processing

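No paired analysis was possible because the 3 groups have 1 library each and no replicate numbers. Over all kept cells, the 4 guidance genes 2-fold apart between the sorted libraries were 1 (ROBO2) with 50 CPM added, 2 (ROBO2 and SLIT3) with each cell weighted equally and 0 with clusters weighted as in the unsorted library; between the positive and the unsorted library the 1 gene became 0 with 50 CPM added and 0 with those cluster weights. Among enterochromaffin-like cells the 2 genes became 0 with 50 CPM added, 1 (SEMA5A) with cells kept from 500 genes and up to 30% mitochondrial UMIs, 1 (SEMA5A) with the guidance genes kept in the clustering, 0 at resolution 0.6, 1 (ROBO2) with cells named 1 by 1 and 0 with clusters weighted equally. The cause was not tested. Counts over all genes moved too. Between the sorted libraries 62 genes became 20 with 50 CPM added and 1 with those cluster weights. Among enterochromaffin-like cells 88 became 16 to 166, and between the positive and the unsorted library 13 became 0 to 26. Between classes 654 of 4388 became 391 of 4388 with 50 CPM added. Without the filter on low genes it was 1037 of 25462, a higher count but a smaller share. The share of unsorted beta-like cells with a ROBO2 UMI was 87.5% unthinned and 86.8% at 5000 UMIs, of alpha-like cells with a DCC UMI 99.2% unthinned, and of enterochromaffin-like cells with a SLIT3 UMI 77.2% unthinned and 54.6% at 5000 UMIs. The count of 12 genes apart between classes ranged from 9 to 14 over its 13 alternatives. Over all alternatives, 69 counts and shares stayed near the main value and 16 moved, and of log2 ratios of single genes 1469 stayed and 259 moved. A change of sign was counted only for the few ratios past 2-fold in the main setting, and of these 0 changed sign. Ratios short of 2-fold could change sign uncounted, as those of NRP1 and DCC did with fixed cluster weights. Depth limits enterochromaffin-like values of the positive library most, with 66 cells.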
